A study of Macaca mulatta with 16 samples.

Results

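The Z-disc and desmin cytoskeleton genes of the heart were followed in 16 RNA-seq libraries of formalin-fixed, paraffin-embedded (FFPE) cardiac tissue of 8 rhesus macaques (Macaca mulatta). The set was chosen by gene symbol and has 10 genes, ACTN2, CSRP3, TCAP, LDB3, NEXN, NEBL, MYPN, MYOZ2, FLNC and DES. Of these, 9 had an entry in the deposited table of 19425 genes, and all 9 passed the filter on low counts, which left 14165 genes. RNA of each animal was extracted by Method QE, a Qiagen AllPrep kit for DNA and RNA from FFPE blocks with added ethanol washes after the wax was removed with xylene, and by Method BL, a CELLDATA RNAstorm kit with a longer protease lysis. There was 1 library per animal and method, hence 8 libraries with Method QE and 8 with Method BL. The animals were of Indian origin and belonged to a model of right ventricular pressure overload. Their hearts were perfused with paraformaldehyde, and the blocks had been archived at room temperature for more than 1 year. The labels name the tissue only as cardiac and give no age, chamber or treatment group of an animal, so no groups of animals were compared. Animals are called by the names their libraries carry, such as rh2957. Library totals lay between 19291593 and 25690001 gene counts with Method QE, and between 14999179 and 25807216 with Method BL.

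The Z-disc is the border of the sarcomere, where actin filaments of neighbouring sarcomeres are crosslinked by alpha-actinin and where titin is anchored. Many adaptor proteins sit there, and some of them also enter signalling or move to the nucleus under mechanical load. Desmin forms the intermediate filaments that tie Z-discs to each other, to the cell membrane and to the nucleus. Variants in most of these genes are known causes of human cardiomyopathy.

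TCAP, which encodes the titin cap protein telethonin, was not analysed here under its own symbol. Its RefSeq place in Mmul_10 is chromosome 16, 50793086 to 50794294, on the plus strand, and the whole of it lies inside the table's entry for STARD3 (50764429 to 50796396, same strand), which encodes a cholesterol carrier of late endosomes. The STARD3 entry held 714 ± 80.6 CPM (counts relative to the library total, scaled by TMM) with Method QE and 650 ± 218 CPM with Method BL (SD, n = 8 each), and between 404 and 1099 CPM over all libraries. The neighbouring entries of PPP1R1B, PNMT and PGAP3 reached at most 2.98, 3.88 and 21.6 CPM in any library. Whether the counts of that entry came from STARD3 or from TCAP cannot be told apart here, and TCAP was therefore left out of all counts below.

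Overlaps of other kinds touched 5 of the measured genes. NEXN lies within the span of FUBP1 and DES within that of DNPEP, both on the opposite strand, 8.8% of the span of FLNC is shared with CCDC136 on the same strand, and NEBL (5.6% on the same strand and 3.0% on the opposite strand) and LDB3 (6.2%, opposite) overlap small unnamed entries. How the strand was used in counting is not given in the sources used here. FUBP1 had 49.7 ± 6.54 CPM with Method QE and 57.8 ± 4.43 CPM with Method BL, against 167 ± 68.0 and 154 ± 50.4 CPM for NEXN (SD, n = 8 each). DNPEP had 9.04 ± 1.48 CPM with Method QE and 8.68 ± 1.49 CPM with Method BL, and CCDC136 5.09 ± 1.57 and 5.29 ± 2.29 CPM (SD, n = 8 each).

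The upstream sequences of LDB3 and MYOZ2 are shown because both genes were lowest in both libraries of 1 animal (below) and because the start annotated in RefSeq lay within 100 bases of the start in the deposited table, as it also did for MYPN. LDB3 is on chromosome 9, minus strand, and its window is chr9:51361716-51361975. MYOZ2 is on chromosome 5, plus strand, and its window is chr5:117190136-117190395. Each window runs from 250 bases before to the first 10 bases of the RefSeq gene in Mmul_10, that is, from its outermost annotated start. RefSeq lists 20 transcripts of LDB3 and 1 of MYOZ2, and any other starts were not searched. The windows are written 5′ to 3′ on the strand of the gene. Capitals mark a match to the MEF2 site, which is bound by the muscle transcription factors of that family.
LDB3: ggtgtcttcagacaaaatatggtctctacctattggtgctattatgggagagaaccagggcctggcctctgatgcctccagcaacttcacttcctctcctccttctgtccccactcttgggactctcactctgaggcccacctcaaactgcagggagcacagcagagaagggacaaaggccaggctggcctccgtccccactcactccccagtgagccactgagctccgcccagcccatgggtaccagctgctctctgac
MYOZ2: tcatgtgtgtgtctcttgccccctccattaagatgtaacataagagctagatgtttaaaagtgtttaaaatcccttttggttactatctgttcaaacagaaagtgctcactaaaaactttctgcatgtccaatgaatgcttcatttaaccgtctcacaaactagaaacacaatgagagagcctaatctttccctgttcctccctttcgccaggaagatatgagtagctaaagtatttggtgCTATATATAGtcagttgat
The match in MYOZ2 begins 9 bases before the RefSeq start (117190386). The start in the deposited table (117190348) lies 38 bases upstream of the RefSeq start. By the deposited start, the match thus lies inside the gene and not before it. Windows of the same 260 bases of 20782 protein-coding genes held a MEF2 site on either strand in 2.90%, a CArG box in 1.06%, CATTCC in 11.3% and TATAAA in 10.2%. The window of LDB3 held none of these 4, and that of MYOZ2 held the MEF2 site alone. Motifs were searched on both strands, and MEF2 sites and TATAAA can overlap. A match describes the letters and no binding was measured.

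Divided by the length of the longest RefSeq transcript, DES had the highest level and MYPN the lowest. The order was the same with both methods, DES, MYOZ2, ACTN2, LDB3, CSRP3, FLNC, NEBL, NEXN and MYPN. DES had 502 ± 67.4 CPM per kilobase with Method QE and 488 ± 142 with Method BL (SD, n = 8 each), over a transcript of 2287 bases. MYOZ2, the calcineurin-binding protein calsarcin-1, came next with 304 ± 67.0 CPM per kilobase with Method QE and 279 ± 86.9 with Method BL, and it was above ACTN2 in 16 of 16 libraries. ACTN2 reached 228 ± 46.1 and 199 ± 58.2 CPM per kilobase and LDB3 reached 177 ± 69.9 and 170 ± 77.4 with Methods QE and BL. MYPN, the myopalladin gene, had 28.9 ± 5.53 CPM per kilobase with Method QE and 27.5 ± 8.00 with Method BL. Not every step in the order was clear of the spread between libraries: LDB3 was above CSRP3 in only 10 of 16 libraries and NEBL above NEXN in 12 of 16, while the other steps held in 14 to 16 libraries. Gene counts pool the isoforms of a gene, and these levels depend on the transcript chosen.

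None of the 9 genes passed the test between Methods QE and BL. In edgeR's quasi-likelihood test with animal as a block, 0 of 9 passed an adjusted p of 0.05, while 2.14% of all genes tested did, and 1 of 9 (ACTN2) had an unadjusted p under 0.05, against 18% of all genes. DESeq2 and limma-voom also called 0 of the 9, and over all genes they called 570 of 19425 and 345 of 14165. At an unadjusted p under 0.05 were 3 of the 9 with DESeq2, beside 2505 of 19425 genes. With limma-voom it was 1 of the 9, beside 2663 of 14165 genes. The fitted log2 fold changes, Method QE minus Method BL, all lay above 0, between 0.06 and 0.25 with a median of 0.13, against a median of 0.004 and 50.7% above 0 over all genes tested. This sign depends on the scaling: on library totals without scaling factors, added after the data were seen, 1 of 9 lay above 0 and the median was -0.11, but the median of all genes moved to -0.24. Relative to the median of all genes the 9 genes were then at 0.13, and at 0.12 with TMM. As an unscaled share of all gene counts, the 9 genes together took 0.491% ± 0.0808 with Method QE and 0.533% ± 0.118 with Method BL (SD, n = 8 each), higher with Method QE in 3 of 8 animals.

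ACTN2, the sarcomeric alpha-actinin that crosslinks actin at the Z-disc, had the smallest p of the set. Its level was 617 CPM at the lowest, 1003 at the median and 1168 at the highest of the Method QE libraries, and 396, 851 and 1144 CPM with Method BL. These ranges overlapped widely, although within animals Method QE was higher in 7 of 8, all but animal I30. The log2 fold change was 0.23 (95% interval 0.04 to 0.42, standard error 0.09, and an adjusted p of 0.197 in edgeR). Over 20 alternative settings its adjusted p lay between 0.0548, with DESeq2, and 0.971.

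CSRP3, the muscle LIM protein, a mechanosensitive adaptor that can enter the nucleus, had the largest fold change of the 9 in the fit over all animals. Method QE libraries held 91.3 CPM at the lowest, 143 at the median and 222 at the highest, and Method BL libraries 38.5, 130 and 172 CPM. The lowest library of each method came from animal rh2957, and Method QE was higher in 5 of 8 animals. Its log2 fold change was 0.25 (95% interval -0.02 to 0.53, standard error 0.13, and an adjusted p of 0.320 in edgeR). Without animal rh2957 it was 0.12, below the 0.17 of ACTN2, and with an offset for transcript length and GC content 0.11, below the 0.26 of ACTN2 and of FLNC.

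LDB3, known as ZASP or Cypher, joins a PDZ domain that binds alpha-actinin to LIM domains. It ranged over 229, 1054 and 1484 CPM (lowest, median and highest) with Method QE, and over 145, 921 and 1526 CPM with Method BL. Single animals went in opposite directions: the difference within an animal was 0.66 in animal rh2957 and 0.57 in I30, and -0.95 in animal r15045, where Method QE gave 788 and Method BL 1526 CPM. Its interval was the widest, from -0.18 to 0.46 around a log2 fold change of 0.14 (adjusted p = 0.663 from edgeR). The fold change was 0.29 without animal r15045 (adjusted p = 0.138 from edgeR), 0.07 without rh2957 and 0.08 without I30.

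MYOZ2 had 218, 359 and 464 CPM (lowest, median and highest) with Method QE, and 129, 350 and 475 CPM with Method BL. Its fold change of 0.18 on the log2 scale had an interval from -0.03 to 0.39 (adjusted p = 0.362 from edgeR), and Method QE was higher in 5 of 8 animals. NEBL, whose product nebulette lines thin filaments near the Z-disc, had 340, 539 and 937 CPM with Method QE and 252, 586 and 770 CPM with Method BL. The median of NEBL was thus lower with Method QE, while its paired log2 fold change was 0.06 (interval -0.16 to 0.28). NEXN, the actin-binding nexilin, had 74.2, 147 and 264 CPM with Method QE and 70.2, 150 and 245 CPM with Method BL. For both genes 4 of 8 animals were higher with Method QE, and the log2 fold change of NEXN was 0.08 (interval -0.15 to 0.30). Without animal rh2957 the fold changes were 0.10 for MYOZ2, 0.01 for NEBL and 0.08 for NEXN.

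MYPN, which tethers nebulin-like proteins to alpha-actinin, had 123, 166 and 230 CPM with Method QE (lowest, median and highest) and 90.9, 159 and 231 CPM with Method BL. FLNC, the muscle filamin that links actin to the membrane and to the Z-disc, had 623, 841 and 1095 CPM with Method QE and 357, 891 and 1003 CPM with Method BL. For DES the values were 860, 1192 and 1333 CPM with Method QE, and 685, 1108 and 1594 CPM with Method BL. All 3 genes were higher with Method QE in 4 of 8 animals, and the libraries of the methods overlapped over most of their range. The log2 fold changes were 0.11 for MYPN, 0.13 for FLNC and 0.08 for DES, with adjusted p-values from edgeR of 0.632, 0.632 and 0.757. Without animal rh2957 they were 0.01 for MYPN, 0.01 for FLNC and -0.02 for DES.

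**Figure D1:**
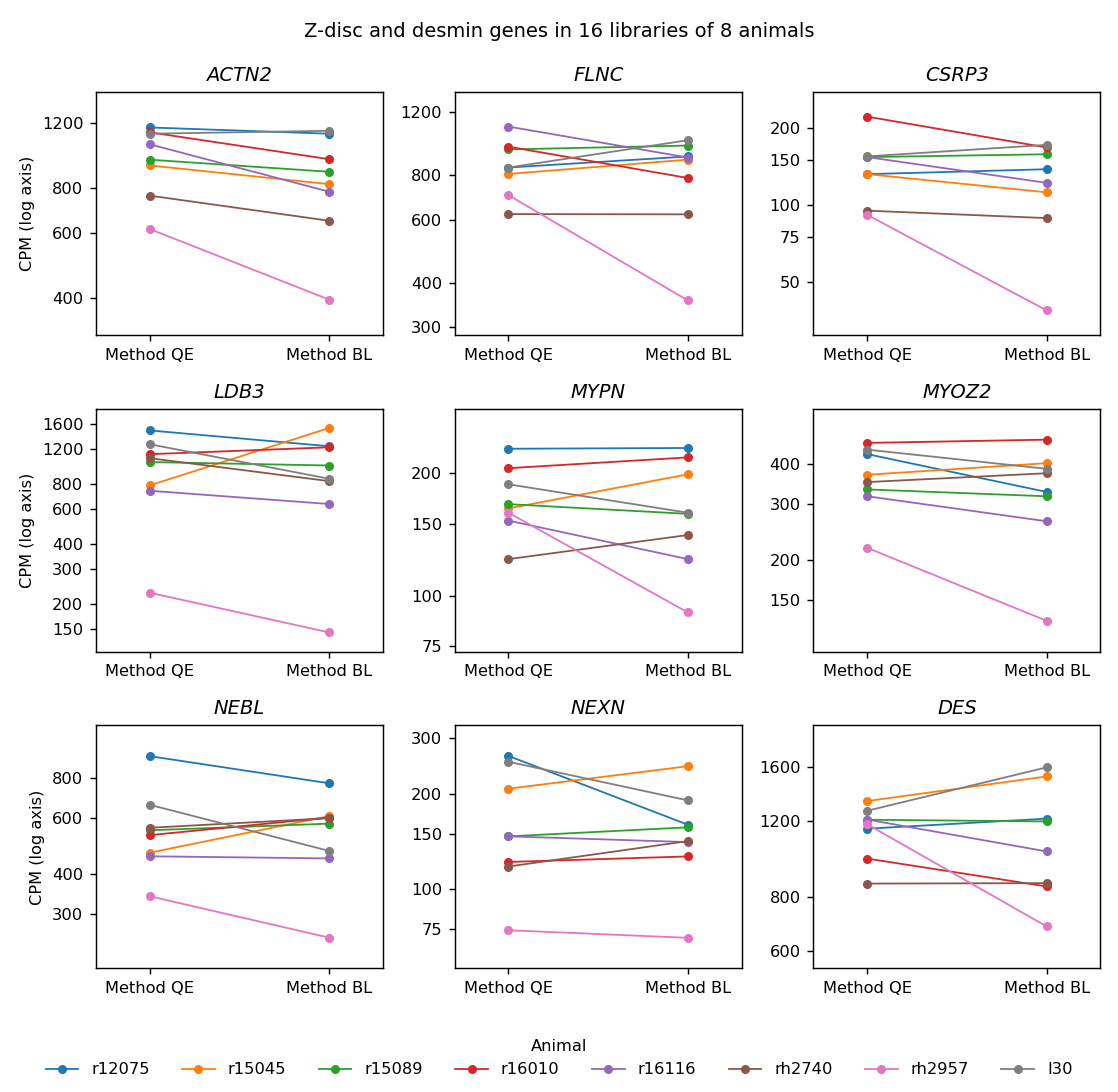
CPM on a log axis (vertical) of the 9 measured genes with Method QE (left) and Method BL (right) in each panel, where each point is a library and each line joins the libraries of 1 of 8 animals. The lines of animal rh2957 run lowest in most panels, and its LDB3 values of 229 and 145 CPM lie below all other libraries.

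The shift toward Method QE was spread unevenly over the animals. All 9 genes were higher with Method QE in animals rh2957 and r16116, with median differences of 0.76 and 0.26 on the log2 scale, and 2 of 9 were in animal r15045, with a median of -0.19. In the other 5 animals 4 or 5 of the 9 genes were higher with Method QE. The share of all genes higher with Method QE was not counted per animal, so these directions are not called particular to the 9 genes. The directions hold after TMM scaling and not for every animal without it. As an unscaled share of all gene counts, the 9 genes together took 0.489% with Method QE and 0.537% with Method BL in r16116. With Methods QE and BL these shares were 0.559% and 0.515% in r15045, and 0.379% and 0.294% in rh2957. Animal rh2957 had the highest signed difference, Method QE minus Method BL, of all animals for 7 of the 9 genes, all but NEXN and NEBL, and for CSRP3 it was 1.24. In absolute size the difference of LDB3 was larger in animal r15045. Without animal rh2957 the median fold change of the 9 genes was 0.07 on the log2 scale and 8 of 9 were above 0. None of the 9 was called in that fit, which called 217 of 14143 genes. With the animals split by the last letter of the Method BL library name, whose meaning is not given, 0 of 9 genes were called in the 5 animals ending in B and 0 of 9 in the 3 animals ending in R. Over all genes, 49 of 14186 were called in the B animals and 0 of 14291 in the R animals. With so few calls, these counts say nothing particular to the 9 genes.

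**Figure D2:**
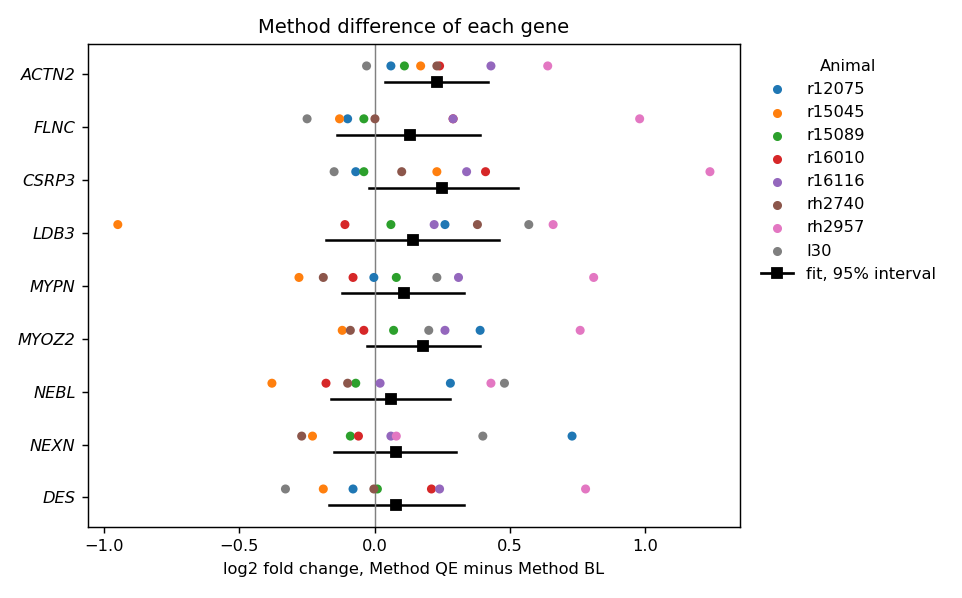
Log2 fold change of Method QE minus Method BL (horizontal) for each of the 9 genes, with 1 coloured point per animal and, below the points, a black square with its 95% interval for the fit over 8 animals. All intervals except that of ACTN2 include 0, and the points of animal rh2957 lie farthest to the right for most genes.

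Other genes of the Z-disc and the desmin network were called between methods about as often as genes in general. A list of 48 partners had 45 entries and 43 genes tested, of which 1 was higher and 0 were lower with Method QE (2.33%, against 2.14% of all genes), with 8 at an unadjusted p under 0.05 (18.6%, against 18% of all genes). Their median log2 fold change was 0.12 and 35 of 43 lay above 0 (81.4%, against 50.7% of all genes), or 7 of 43 on library totals without scaling factors. MYOZ1, the calsarcin that prevails in fast skeletal muscle, had 15.7 ± 6.08 CPM with Method QE and 11.4 ± 4.51 CPM with Method BL (SD, n = 8 each), higher with Method QE in 8 of 8 animals (a log2 fold change of 0.45 with a standard error of 0.10 and an adjusted p of 0.0416 in edgeR). Its call was lost when any 1 animal other than I30 was left out, and over those 7 fits its adjusted p lay between 0.0607 and 0.122 in edgeR. The next smallest p-values belonged to PDLIM7, a PDZ and LIM protein (-0.30), the actin-capping subunit CAPZA2 (0.22), the stress-responsive repeat protein ANKRD1 (0.22) and the LIM protein FHL2 (0.28), with adjusted p-values between 0.135 and 0.212 from edgeR. The most abundant partners were the small heat shock protein HSPB7 with 2536 ± 356 CPM with Method QE and 2186 ± 531 CPM with Method BL, FHL1 with 1191 ± 347 and 1074 ± 402 CPM, PDLIM5 with 948 ± 176 and 846 ± 134 CPM, HSPB6 with 863 ± 256 and 783 ± 211 CPM, and NRAP with 814 ± 164 and 753 ± 201 CPM. None of these 5 passed the test.

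Most of the 9 genes differed between animals. An F test of all animal terms in the same edgeR fit called 7 of 9 genes at an adjusted p of 0.05, ACTN2, CSRP3, LDB3, NEXN, NEBL, MYPN and MYOZ2, while it called 31.5% of all genes tested. Among the 679 genes with at least the mean CPM of CSRP3, the lowest of the set, 48.7% were called. The F statistics ran from 13.6 for LDB3 (adjusted p = 0.000878 from edgeR) to 4.76 for MYPN (adjusted p = 0.0308), and FLNC (adjusted p = 0.0793) and DES (adjusted p = 0.0891) did not pass. The median SD between the animals' means was 0.43 on the log2 scale, against a median SD of 0.24 between the extractions of an animal. Over all genes these were 0.27 and 0.23, and among the 679 genes of that abundance 0.26 and 0.17. Of the 43 partners, 30 were called, 69.8%. The count fell to 3 of the 9 genes (CSRP3, LDB3 and NEXN, with 16.5% of all genes called) on library totals without scaling factors. MYPN was not called without animal r12075 (adjusted p = 0.0920) or without animal r16010 (adjusted p = 0.0589), and LDB3 not without animal rh2957 (F = 2.44, adjusted p = 0.172), all from edgeR. The test sets animals against the spread left between the extractions of an animal. The chamber and block sampled are not given, so differences between animals and between sampled blocks or chambers cannot be told apart. In bulk tissue, fewer cells of a type and less RNA per cell cannot be told apart either.

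Animal rh2957 stood lowest for 8 of the 9 genes, and for DES it was second to animal rh2740. Both of its libraries lay below all other 14 libraries for ACTN2, LDB3, NEXN, NEBL and MYOZ2. LDB3 had 229 CPM with Method QE and 145 CPM with Method BL in this animal, against 636 to 1526 CPM in the other 14 libraries, and it was 5.63-fold lower than the geometric mean of the other 7 animals. The same ratio was 2.35 for CSRP3, 2.31 for NEXN, 2.21 for MYOZ2, 1.96 for NEBL, 1.92 for ACTN2, 1.71 for FLNC, 1.43 for MYPN and 1.27 for DES. NEXN had 74.2 and 70.2 CPM with Methods QE and BL in animal rh2957, against 118 to 264 CPM in the other libraries. On library totals the animal was lowest for 7 of the 9 genes, both libraries were below all others for LDB3, NEBL and MYOZ2, and LDB3 was 4.59-fold lower. These values describe 1 animal with 2 extractions and were not tested as a contrast. The share of all genes that were lowest in this animal was not counted, so the counts are not called particular to the 9 genes. No other animal had both libraries below the rest for any of the 9 genes.

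At the upper end no single animal led. Animal r12075 was highest for ACTN2, LDB3, NEBL and MYPN, with 937 CPM of NEBL with Method QE and 770 CPM with Method BL against at most 659 CPM in any library of another animal. Animal r16010 was highest for CSRP3 and MYOZ2, with 464 and 475 CPM of MYOZ2 with Methods QE and BL. Animal r15045 was highest for NEXN and DES, and animal r16116 for FLNC. The whole range over animals was 2.90 on the log2 scale for LDB3, a 7.44-fold difference of animal r12075 over rh2957, and 0.73 for DES, a 1.65-fold difference. When animal rh2957 was left out, DES passed the test between animals (F = 5.65, adjusted p = 0.0273 from edgeR).

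**Figure D3:**
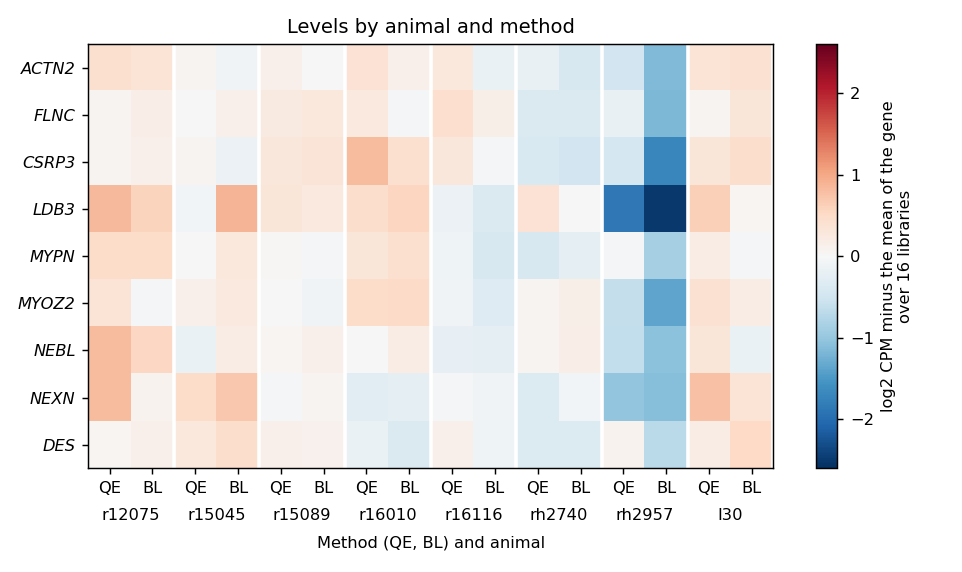
Log2 CPM of each of the 9 genes (rows) minus its mean over 16 libraries, in colour, for Method QE (left) and Method BL (right) of each of 8 animals (columns). The columns of animal rh2957 are blue for most genes, deepest for LDB3, while the pair of columns of r12075 is red for NEBL, LDB3 and MYPN.

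The proportions among the 9 genes do not depend on any scaling of libraries. LDB3 made up 6.34% of the counts of the 9 genes with Method QE and 6.69% with Method BL in animal rh2957, against 13.9% to 24.2% in the other 14 libraries. DES made up 32.6% and 31.7% with Methods QE and BL there, against 15.7% to 26.7% elsewhere. MYPN too had its highest shares in this animal, 4.42% and 4.20%, against 2.68% to 4.05%. For ACTN2 the shares of 17.1% and 18.3% lay within the range of the other libraries, 13.0% to 19.8%. The set was thus not lower by a common factor in animal rh2957. The shares of LDB3, DES, MYPN and MYOZ2 (6.03% and 5.96%) were close between its extractions. Those of 4 genes were less so: with Methods QE and BL, NEXN had 2.05% and 3.25% (2.12% to 4.08% in the other libraries), CSRP3 2.53% and 1.78%, NEBL 9.41% and 11.6%, and FLNC 19.5% and 16.5%. Averaged over animals, DES held 22.1% ± 5.14 of these counts with Method QE and 22.9% ± 4.82 with Method BL, and LDB3 held 17.5% ± 5.59 and 17.5% ± 5.60 (SD, n = 8 each).

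**Figure D4:**
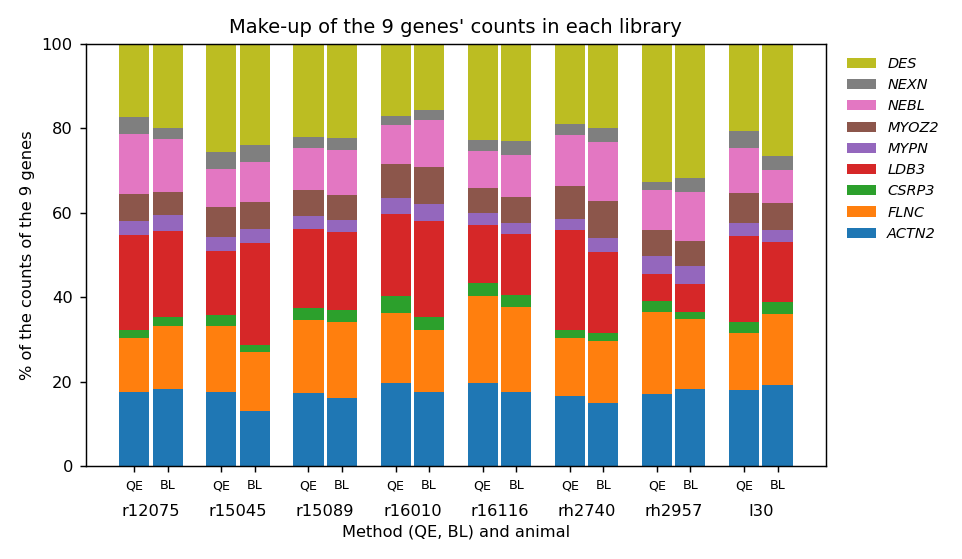
Percent of the summed counts of the 9 genes (vertical) held by each gene, as stacked bars from 0 to 100% for Method QE (left) and Method BL (right) of each of 8 animals. The LDB3 segment of animal rh2957 is 6.34% and 6.69%, narrower than the 13.9% to 24.2% of all other bars, and its DES segment of 32.6% and 31.7% is wider.

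Several partners had wide ranges over animals too. ANKRD1, which responds to stretch and strain in heart muscle, had 57.6 CPM with Method QE and 39.0 CPM with Method BL at the lowest, both in animal rh2957, with medians of 372 and 307 CPM over the animals (F = 47.9, adjusted p = 4.71e-06 between animals from edgeR). XIRP2, an actin-binding Xin repeat protein chosen after its values were seen, had 38.8 and 23.9 CPM with Methods QE and BL in animal rh2957, against medians of 372 and 324 CPM. Its range over animals was 20.4-fold, with animal I30 highest. MYOZ1 was lowest in animal rh2740, at 4.18 CPM with Method QE and 3.90 CPM with Method BL, and FHL2 had its highest Method QE value, 1292 CPM, in animal rh2957.

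Some markers of cell types stood apart in the same animal. The cardiomyocyte list (8 of 10 genes in the table, TTN and MYH7 the most abundant, none at 0) summed to 97553 CPM with Method QE and 64513 CPM with Method BL in animal rh2957, against 99204 to 166437 CPM in the other 14 libraries. TTN, the titin gene, had 76092 and 53025 CPM with Methods QE and BL there, against 74454 to 135533 CPM, and MYH7, the slow myosin of the ventricle, 16672 and 8885 CPM against 8659 to 19582 CPM. The cardiac actin ACTC1, chosen after its values were seen, had 208 and 166 CPM in animal rh2957, against 1962 to 3986 CPM in the others. Most of the sum was TTN, so the genes were also counted one by one. Below all other 14 libraries lay 2 of 8 genes with Method QE and 6 of 8 with Method BL, and 1 of 8 lay above them with Method BL, the atrial light chain MYL7 (named after its values were seen), with 7.16 CPM with Method QE and 27.9 CPM with Method BL, against 1.32 to 15.1 CPM. The extractions of this animal thus differed in how many of these genes stood apart. The share of all genes outside the other 14 libraries was not counted for either library of rh2957. The counts for this list and for the lists below therefore have no such background.

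The summed leukocyte list was highest in animal rh2957, though not all of its genes were. That list (7 of 8 genes, none at 0) summed to 437 CPM with Method QE and 690 CPM with Method BL in animal rh2957, against 112 to 297 CPM in the others. CD163, a receptor of macrophages, had 161 and 234 CPM there with Methods QE and BL, against 28.3 to 84.7 CPM, and MRC1, the mannose receptor, 127 and 208 CPM against 27.4 to 81.8 CPM. In all, 3 of 7 genes lay above the other 14 libraries with Method QE and 4 of 7 with Method BL, while CD3E, a T cell gene named after its values were seen, lay below them with 1.13 and 0.981 CPM, against 1.28 to 8.06 CPM. The adipocyte list (7 of 7 genes, none at 0, with LPL and PLIN4 the most abundant) summed to 1139 and 1214 CPM with Methods QE and BL, against 417 to 1224 CPM. In the Method BL library of animal rh2957, 5 of its 7 genes were above all other animals, but 0 of 7 were in the Method QE library, as for ADIPOQ, the adiponectin gene (chosen after its values were seen), with 3.73 CPM with Method QE and 80.9 CPM with Method BL. These are the same libraries between which the 9 genes differed by a median of 0.76 on the log2 scale, and the part of fat tissue in that difference was not tested.

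The sums of the smooth muscle, fibroblast and endothelial lists lay inside the range of the other animals, but single genes did not. In animal rh2957 the smooth muscle list (8 of 8 genes, MYOCD and TAGLN leading) summed to 410 CPM with Method QE and 498 CPM with Method BL, against 326 to 729 CPM, the fibroblast list (8 of 8, DCN and COL1A1) to 906 and 2106 CPM against 740 to 6678 CPM, and the endothelial list (8 of 8, VWF and PECAM1) to 777 and 570 CPM against 450 to 894 CPM. Of the endothelial genes, 1 of 8 lay below all 14 other libraries with Method QE and 4 of 8 with Method BL, and KDR, a receptor of vascular growth factor named after its values were seen, did so in both, with 19.0 and 28.4 CPM against 29.6 CPM or more. Of the smooth muscle genes, 2 of 8 lay below and 1 above with Method QE, and 1 below and 1 above with Method BL, where TAGLN had 195 CPM against at most 123 CPM elsewhere. Of the fibroblast genes, 2 of 8 lay below with Method QE and 1 above with Method BL. The skeletal muscle list had 5 of 9 genes in the table, and almost all of its sum was CKM, the muscle creatine kinase that the heart also makes, with 688 and 279 CPM in animal rh2957 with Methods QE and BL, against 500 to 1273 CPM. The sum of that list was 688 and 281 CPM there, against 502 to 1274 CPM. Its other genes in the table, ACTN3 of fast fibres among them, had means below 1 CPM with each method. No gene of these lists passed the test between methods. The part of cell make-up in the levels of animal rh2957 was not tested.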

How the data were processed

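Following the paper, the authors' workflow was rRNA depletion, stranded paired-end sequencing, alignment to Mmul_10 (STAR 2.7.8a, inside Partek Flow) and quantification with the E/M algorithm of that program. The deposited estimated counts are not normalized, 76.7% of values lie within 1e-06 of a whole number, and no gene sums to less than 10. An entry broken over 3 lines was joined. Samples were grouped by their method label and matched between methods by the animal that the library name contains. The extraction text of all 16 samples names the kit of Method QE, which the method label of the Method BL samples contradicts.

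Counts were rounded, filtered (filterByExpr), scaled by TMM and tested with edgeR 4.0.16 in R 4.3.3 (quasi-likelihood F test, animal and method in the model, Benjamini-Hochberg over 14165 genes, threshold 0.05). Standard errors were derived from the fold change and its F statistic. Log2 CPM has a prior count of 2. The p-values between methods and between animals are both set against the spread left within animals after the method difference. Whether extractions used separate tissue pieces is not given, so what that spread includes is not known. Scripts were tested on simulated data. Alternatives used DESeq2 1.42.0 and limma 3.58.1 (voom), other scalings and filters, and fewer animals. Transcript lengths, places and promoters came from RefSeq annotation of Mmul_10. The genes and lists were chosen with earlier results of these data known. Named partners are the 5 with the smallest p between methods and the 5 most abundant, and named markers the 2 most abundant of a list, other than genes marked as chosen later.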

Additional observations from a re-analysis of the deposited data

Results flagged for a closer look

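In a group of 8 libraries, a library was marked when its gap to the nearest of the others, divided by the range of the group on the log2 scale, exceeded Dixon's 95% critical value. Chance marks about 1 in 20 groups. Of 20 groups (the 9 measured genes and the STARD3 entry by method), 5 were marked, and each time the lowest library was that of animal rh2957, so these groups are not independent of each other. For LDB3 the ratio was 0.628 with Method QE (229 CPM) and 0.628 with Method BL (145 CPM). With Method BL alone, CSRP3 had a ratio of 0.557 (38.5 CPM), MYOZ2 of 0.55 (129 CPM) and FLNC of 0.537 (357 CPM). How often this rule marks libraries of rh2957 over all genes was not counted. The 5 of 20 thus cannot be called an excess particular to these genes. No explanation of these values was tested.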

How the results depend on the processing

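No alternative called any of the 9 genes between methods. The replicate block, the pairing of libraries by animal, decided the count over all genes, which was 303 with it and 5 without it, and the paired design called 1 partner gene against 0 without the block. That partner count was also 0 in the animals with a name ending in B, in those ending in R and with a length and GC offset, and 0 to 1 when 1 animal was left out. On library totals without scaling factors, chosen after the data were seen, 709 genes were called, MYOZ1 was not, PDLIM7 was, and 3 of the 9 genes were called between animals instead of 7. There the log2 fold changes were -0.01 for ACTN2, -0.10 for LDB3, -0.16 for NEXN, -0.18 for NEBL, -0.13 for MYPN, -0.06 for MYOZ2, -0.11 for FLNC and -0.16 for DES, beside a median of -0.24 over all genes. In the 3 animals with a name ending in R, LDB3 was at -0.08, NEXN at -0.08 and NEBL at -0.005. Leaving out 1 animal, NEXN lay between -0.02 (without r12075) and 0.13, and DES between -0.02 (without rh2957) and 0.14. The cause of these changes was not tested. The count of the 9 genes called between animals was 6 to 7 when 1 animal was left out. The share of all genes called in those fits lay between 23.6% (without r16010) and 34.2% (without r15045). Over all genes DESeq2 called 570, limma-voom 345, the offset 34 of 11536 tested, the B animals 49, the R animals 0 (870 unadjusted), and leaving out 1 animal 37 to 355. The order of levels per kilobase kept all 9 places equal between methods with median transcript lengths and without any 1 animal.

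With 8 animals, a difference between methods is bounded by the 95% intervals, which reach from -0.18 to 0.53 on the log2 scale over the 9 genes. Length and GC content were known for 81.4% of tested genes.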
